A study of Homo sapiens with 9 samples.

Results

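The genes described here are 10 that are used to recognise the retinal pigment epithelium (RPE) or that handle retinoids in it: RDH5, RDH10, RDH11, RLBP1, RPE65, LRAT, MITF, OTX2, SERPINF1 and BEST1. They were chosen by symbol and all 10 were found among the 26475 genes of the deposited count table. RNA was measured in 9 libraries of hTERT_RPE1 cells, an established human RPE line immortalised with telomerase, 24 h after seeding. Control cells carried the empty pLKO vector and grew on glass coated with fibronectin. The sh_PIP4K2B cells grew on the same glass and carried 1 of 3 hairpins (#1, #2 and #3) against PIP4K2B, a kinase of phosphoinositide lipids, with 1 library per hairpin. Soft cells carried the empty pLKO vector and grew on a fibronectin-coated gel of 2.3 kPa, far softer than glass. All cells were of this 1 line, all had been transduced, and all adhered to fibronectin. For Control and Soft cells the titles and the study's methods name the empty vector, and the treatment label a control shRNA. Each condition had 3 libraries, and nothing in the labels says that they came from separate cultures, so the p-values measure the spread between these libraries.

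In the eye, the RPE is a single pigmented layer that feeds and clears the photoreceptors and regenerates the chromophore of the visual pigments. LRAT joins all-trans-retinol to a fatty acid, RPE65 turns this ester into 11-cis-retinol, and RDH5 and related retinol dehydrogenases oxidise it to 11-cis-retinal, which the carrier protein RLBP1 (CRALBP) binds. MITF and OTX2 are the transcription factors that set up and maintain RPE identity, BEST1 is a chloride channel of the basolateral membrane and SERPINF1 (PEDF) is a secreted protein that restrains vessel growth.

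The start-site regions of 7 of the 10 genes were found in the RefSeq promoter table (GRCh38.p14), each running from 250 bases before the start to 50 bases after it; RDH10, SERPINF1 and BEST1 had no entry. They were searched on both strands for CATGTG and CACGTG, forms of the E-box that MITF binds, and for TAATCC, the core bound by OTX factors. Across all 35116 windows of this length, 11.1% held CATGTG or its complement CACATG, 7.26% held CACGTG, and 6.36% held TAATCC or its complement GGATTA. The windows of RLBP1 and RDH5 are shown whole because RLBP1 had counts only in the Soft libraries and RDH5 was the 1 gene of the 10 that fell in sh_PIP4K2B. Capitals mark motif letters, and both sequences are printed in the direction of the gene.
RLBP1 (chr15:89221530-89221829, minus strand): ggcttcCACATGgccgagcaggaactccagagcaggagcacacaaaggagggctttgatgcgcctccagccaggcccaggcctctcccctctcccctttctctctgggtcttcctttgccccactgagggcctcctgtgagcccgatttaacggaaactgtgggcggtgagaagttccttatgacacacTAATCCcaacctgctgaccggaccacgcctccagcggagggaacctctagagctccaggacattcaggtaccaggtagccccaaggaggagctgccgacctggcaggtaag
RDH5 (chr12:55720143-55720442, plus strand): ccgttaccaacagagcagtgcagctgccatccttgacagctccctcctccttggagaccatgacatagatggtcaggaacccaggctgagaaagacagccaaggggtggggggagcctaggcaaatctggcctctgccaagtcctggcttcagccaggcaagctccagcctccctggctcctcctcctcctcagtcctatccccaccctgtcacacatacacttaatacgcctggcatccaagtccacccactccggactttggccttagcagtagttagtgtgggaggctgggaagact
The RLBP1 window held CACATG, beginning at position -244 from the start, and TAATCC, beginning at -61. The RDH5 window held none of the letters searched. Short stretches around the matches of the other genes are shown for comparison.
RDH11 (chr14:67695997-67696014, minus strand): CATGTGtgcctagaggtg
RDH11 (chr14:67695896-67695925, minus strand): ctagatggttggGGATTAgcgatgtataat
OTX2 (chr14:56810701-56810729, minus strand): tacaattagttCACATGctccggcccata
In RDH11 these matches begin at -250 and -149, and in OTX2 the match begins at -239 in 1 of its 2 windows. RPE65, LRAT and the 3 windows of MITF held none. A match of letters does not show that a factor binds there.

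The deposited table holds estimated counts per gene with library totals between 19217346 and 24020799, and levels are given as CPM, counts scaled to a common library total after TMM normalisation. A count of 3 in 1 library, taken as the floor of detection, is 0.131 to 0.148 CPM; this covers counting error only. Of the 26475 genes, 13784 had enough counts to be tested. PIP4K2B itself was at 122 ± 2.26 CPM in Control (SD, n = 3) and at 48.4, 40.9 and 36.6 CPM with hairpins #1, #2 and #3 (log2 fold change, or log2FC, of -1.54, SE 0.12, adjusted p = 3.8e-04; adjusted p = 0.0122 in a fit of these 2 conditions alone; edgeR). The median SD of log2 CPM between libraries was 0.356 in sh_PIP4K2B, where each library is another hairpin, against 0.0807 in Control and 0.0733 in Soft. All 9 libraries were fitted together with 1 shared estimate of the spread, so the differences between hairpins also widen the errors of Soft against Control. The closer Control and Soft libraries in turn narrow the errors of sh_PIP4K2B against Control. Over all genes this comparison had 763 calls in the shared fit and 5 in a fit of these 2 conditions alone, so its calls depend on the shared spread.

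The cells kept some RPE genes and lacked others. Of 20 RPE markers, 9 had enough counts to be tested, 3 were detected below the filter (RLBP1, TYRP1 and PMEL), and 8 had under 3 counts in every library. The latter were RPE65, LRAT, the melanin enzymes TYR and DCT, the melanosome protein MLANA, the potassium channel KCNJ13, the lactate transporter SLC16A8 and the thyroxine carrier TTR, and DCT and TTR were at 0 in all 9 libraries. The summed level of the RPE markers, most of it the simple-epithelial keratins KRT8 and KRT18, ran from 2002 to 2152 CPM in Control, from 775 to 1177 in sh_PIP4K2B and from 982 to 1032 in Soft. All 16 mesenchymal markers were tested, and they summed to 37728 to 39167 CPM for Control, 15076 to 48750 CPM for sh_PIP4K2B and 38442 to 43853 CPM for Soft. Of 16 photoreceptor markers 2 were tested (sums of 3.29 to 4.02, 3.37 to 4.50 and 9.43 to 11.6 CPM in the same order), with RCVRN and GUCA1A among those at 0 throughout. Of 9 Müller glia markers 3 were tested (56.8 to 59.9, 41.8 to 67.8 and 150 to 155 CPM), with AQP4, CA2, S100B and KCNJ10 at 0, and none of 6 melanocyte markers was tested. Whether these sums have a part in the changes given below was not tested. In bulk RNA, fewer cells that express a gene and less RNA per cell cannot be told apart.

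**Figure D1:**
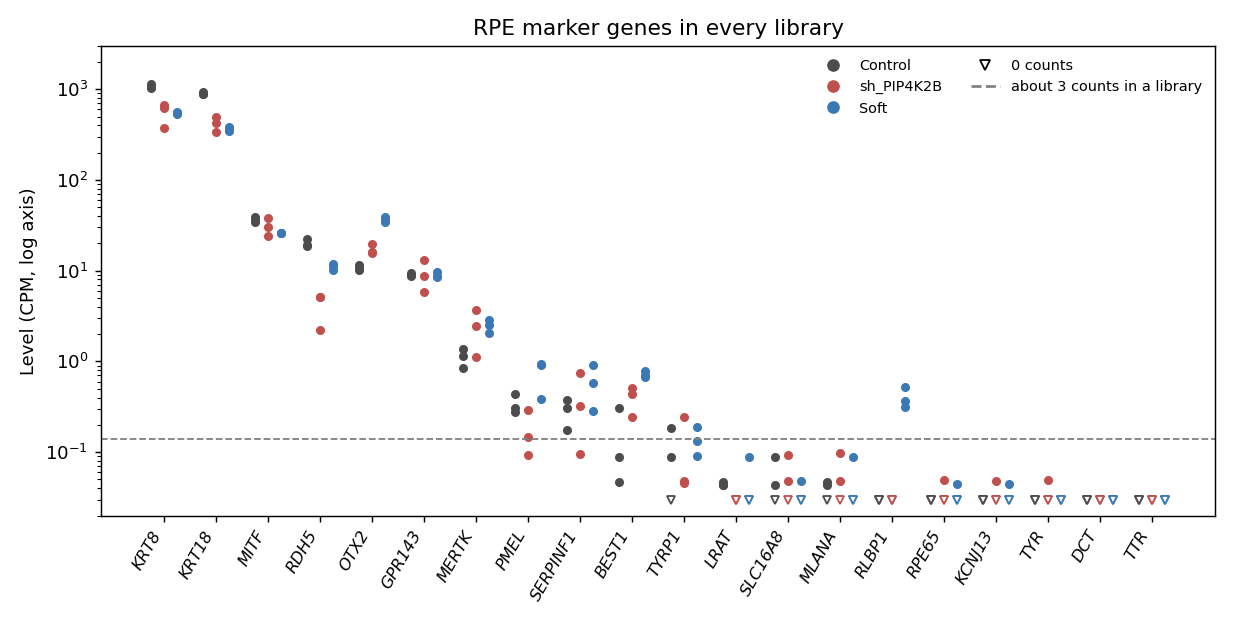
RPE marker genes in each of the 9 libraries, as CPM on a log axis, with 1 point per library, genes ordered from left to right by their level and the 3 conditions side by side. Open triangles at the bottom mark a count of 0 and the dashed line marks about 3 counts in a library; RPE65, LRAT and 6 other markers lie below the floor everywhere, while RLBP1 rises above it in the 3 Soft libraries.

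Of the 10 genes, 7 passed the filter on low counts, and 5 of these (RDH5, RDH10, RDH11, MITF and OTX2) were above 1 CPM in every library. SERPINF1 and BEST1 passed with only traces of RNA, all below 1 CPM. BEST1 reached the filter through its Soft libraries, where it was highest, so whether it was tested depended on the condition in which it is high. RLBP1 was detected below the filter, and RPE65 and LRAT were under the floor everywhere. Neither LRAT, which makes the retinyl esters of the visual cycle, nor RPE65, which isomerises them, was detectable at this depth, while 3 retinol dehydrogenases were.

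Per kilobase of the canonical transcript (GENCODE v44), RDH11 was the most abundant of the 7 in every condition, with a mean of 40.6 CPM per kb for Control, 36.2 for sh_PIP4K2B and 31.5 for Soft. In Control it was followed by RDH5 at 15.7, RDH10 at 8.91, MITF at 7.61 and OTX2 at 3.63 CPM per kb, and the libraries of neighbours in this order did not overlap. SERPINF1 and BEST1 came last at 0.198 and 0.0665 CPM per kb and overlapped each other. In sh_PIP4K2B the order after RDH11 was MITF at 6.41, RDH10 at 6.03, OTX2 at 5.69 and RDH5 at 3.27 CPM per kb, and MITF overlapped RDH10 as RDH10 overlapped OTX2. In Soft it was RDH10 at 19.2, OTX2 at 12.4, RDH5 at 8.82 and MITF at 5.42 CPM per kb, with no overlap between these neighbours. RDH5 therefore moved from the second place in Control to the fifth in sh_PIP4K2B and the fourth in Soft, and OTX2 from the fifth place to the third in Soft.

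**Figure D2:**
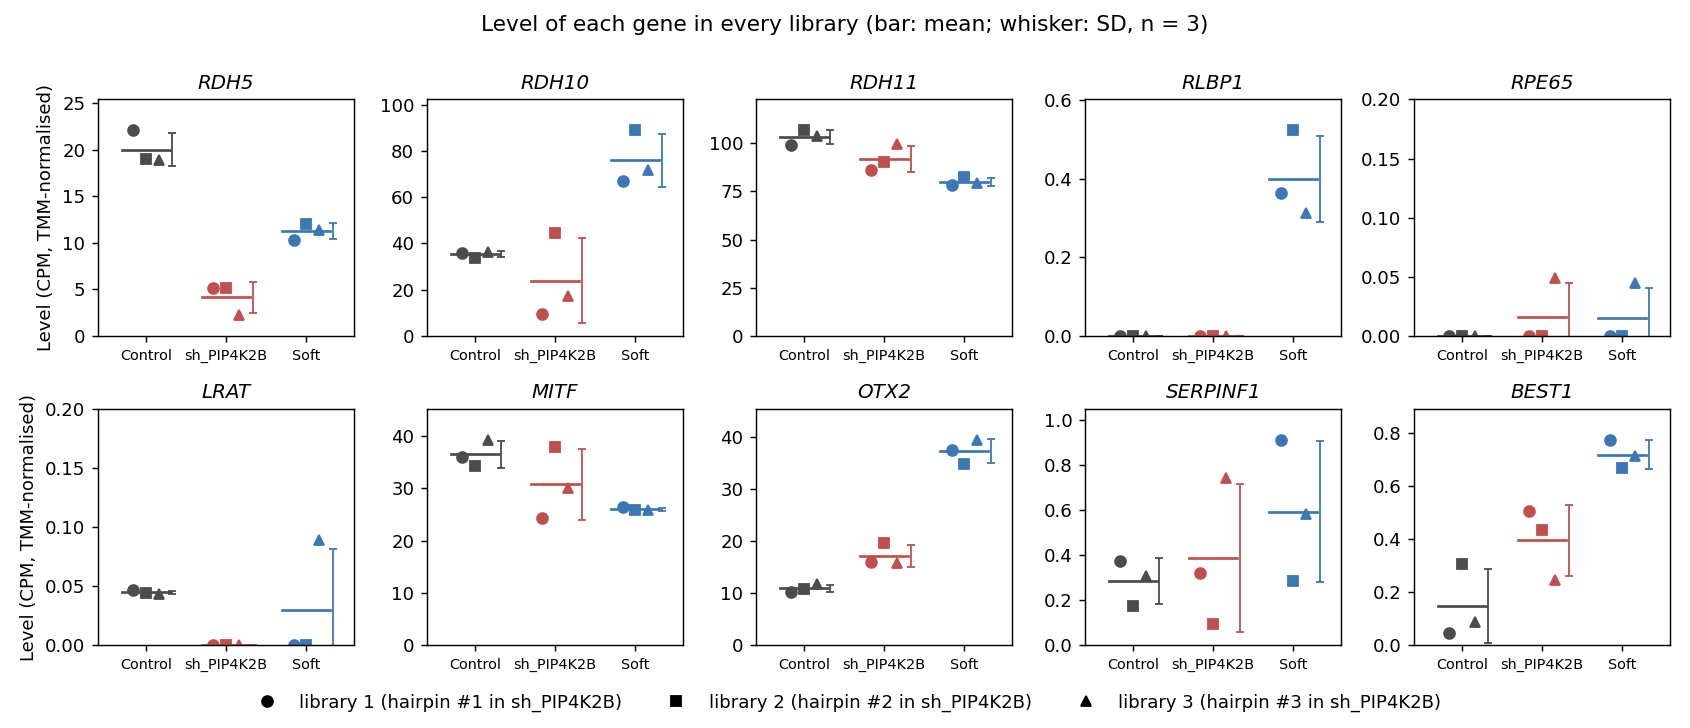
Level of each of the 10 genes in every library, in CPM on a linear axis that starts at 0 and is scaled for each gene, with the condition on the x axis, the marker shape giving the library or hairpin, the bar the mean and the whisker the SD (n = 3). RDH5 is highest in Control and OTX2 highest in Soft without overlap, RDH10 is scattered between hairpins from 9.53 to 44.6 CPM, and the panels of RLBP1, RPE65 and LRAT span only a few counts.

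Depletion of PIP4K2B was compared with Control to ask which of these genes follow the loss of the kinase. Of the 7 genes tested, 1 rose (OTX2) and 1 fell (RDH5) at an adjusted p below 0.01, beside 5.54% of all genes tested (2.76% higher and 2.77% lower), with a median log2FC of -0.16 over the 7 genes and 0.05 over all genes. The libraries of the 2 conditions did not overlap for the same 2 genes, beside 34.1% of all genes. Growth on the soft gel was compared with Control in the same fit. There OTX2 rose and none fell by edgeR's test, beside 30.6% of all genes (15.8% higher and 14.8% lower), and the median was 1.05 against 0.01. This median is the value of SERPINF1, which had at most 20 counts in a library and a 95% interval from -0.41 to 2.52. The median is therefore no measure of a shift of the 7 genes. BEST1 was also past the threshold, but it entered the test through its Soft libraries, so its value there is a description. At an unadjusted p under 0.05 RDH10 was higher as well, and RDH5, RDH11 and MITF were lower. DESeq2 called the 3 lower genes but not RDH10. The libraries did not overlap for 6 of the 7 genes (all but SERPINF1), beside 79.4% of all genes. Soft was also tested directly against sh_PIP4K2B, where 2 genes were higher by edgeR's test (RDH5 and OTX2), beside 30.0% of all genes (14.5% higher). DESeq2 called 3 genes higher (RDH5, RDH10 and OTX2), and the same 3 were higher at an unadjusted p under 0.05. None was lower by edgeR's test, by DESeq2 or at an unadjusted p under 0.05 (0 genes). The median of 0.85, against -0.03 for all genes, was the value of BEST1, which entered the test through its Soft libraries. The libraries of 5 genes did not overlap (RDH5, RDH10, RDH11, OTX2 and BEST1), beside 54.0% of all genes. Both comparisons with Control share the Control libraries.

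**Figure D3:**
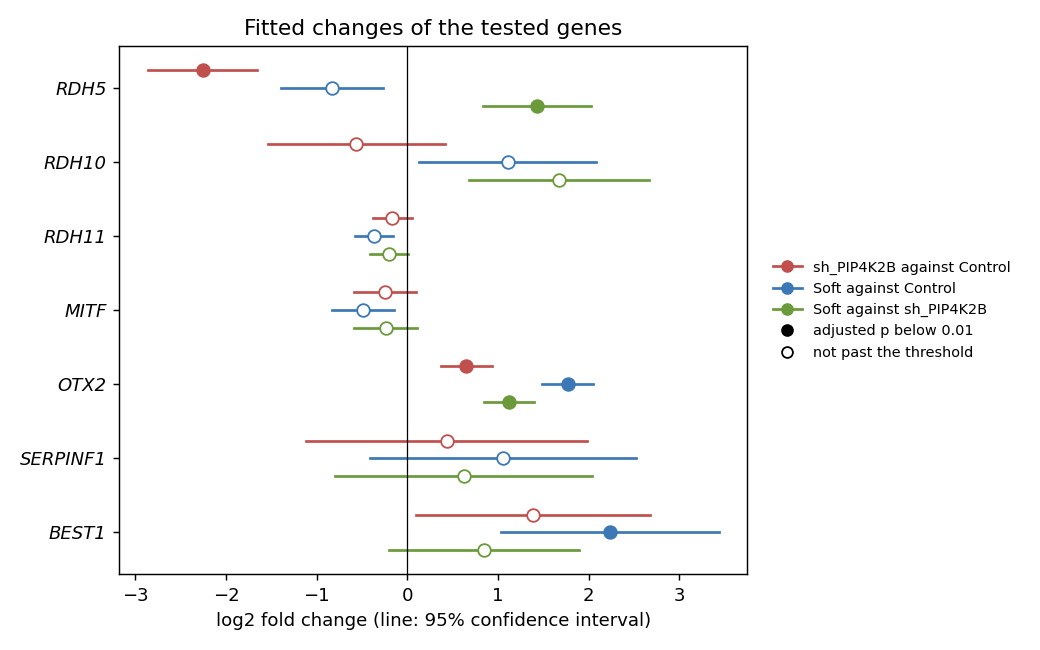
Fitted log2FCs of the 7 genes tested, on the x axis, in the 3 comparisons, with 95% confidence intervals as lines, filled points for an adjusted p below 0.01 and open points for the others. The intervals of OTX2 lie above 0 in all 3 comparisons, RDH5 lies below 0 against Control and above 0 for Soft against sh_PIP4K2B, and the widest intervals belong to SERPINF1 and BEST1.

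RDH5, the 11-cis-retinol dehydrogenase that is named as the main such enzyme of the RPE, is on the plus strand of chromosome 12, from 55720367 to 55724705 (GRCh38, 5 exons). It was at 22.1, 19.0 and 18.9 CPM in Control, at 5.16, 5.11 and 2.22 CPM with hairpins #1, #2 and #3, and at 10.3, 12.0 and 11.4 CPM in Soft. The 3 conditions formed separate ranges, with Control highest, Soft between and the hairpins lowest. With the hairpins RDH5 stood at 25.8%, 25.5% and 11.1% of the Control mean, a mean of 4.16 ± 1.68 against 20.0 ± 1.80 CPM (SD, n = 3; log2FC -2.26, SE 0.27, edgeR adjusted p = 0.00121). The fall kept its direction in all 17 alternatives (from -2.45 to -1.93), but missed the threshold without Control replicate 2 (edgeR adjusted p = 0.0104) and in a fit of the 2 conditions alone (edgeR adjusted p = 0.0188). In Soft the level of 11.2 ± 0.859 CPM (SD, n = 3) gave a log2FC of -0.83 (SE 0.25, edgeR adjusted p = 0.0228), which is not past the threshold. It passed without hairpin #3 (edgeR adjusted p = 0.000261), in a fit of Control and Soft alone (edgeR adjusted p = 3.5e-07) and with DESeq2 (adjusted p = 0.00473). Soft was higher than sh_PIP4K2B by a log2FC of 1.43 (SE 0.27, edgeR adjusted p = 0.00222), a difference that missed the threshold without Soft replicate 2 (edgeR adjusted p = 0.0107) and in a fit of these 2 conditions alone (edgeR adjusted p = 0.0131).

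Of the 1200 windows of 75 bases in the RDH5 transcript, 75 nt being the read length, 588 (49%) also occur in an annotated readthrough gene that joins RDH5 to its upstream neighbour BLOC1S1, a subunit of a lysosome-related organelle complex. How the authors' counting divided such reads is not stated, so the RDH5 level is uncertain by the reads of this partner. The table has a row of its own for BLOC1S1-RDH5, at 2.93, 3.03 and 3.63 CPM in Control, 1.70, 1.73 and 2.27 CPM in sh_PIP4K2B and 2.14, 1.33 and 1.65 CPM in Soft. This row was lower than every Control library in all 6 others, without passing the threshold (log2FC -0.75, adjusted p = 0.0575 in sh_PIP4K2B and -0.90, adjusted p = 0.0121 in Soft, edgeR). With both rows summed the change of RDH5 in Soft was -0.84 and passed (edgeR adjusted p = 0.00234). The summed change was smaller than that of RDH5 alone in sh_PIP4K2B (-1.93, edgeR adjusted p = 0.000475). It was smaller also for Soft against sh_PIP4K2B (1.09, edgeR adjusted p = 0.000764), and both still passed. BLOC1S1 itself was higher in Soft (log2FC 1.03, edgeR adjusted p = 8.71e-05) and at 0.22 in sh_PIP4K2B (edgeR adjusted p = 0.183).

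RDH10, which oxidises all-trans-retinol in the first step of retinoic acid synthesis, was at 35.8, 33.8 and 36.3 CPM in Control, at 9.53, 44.6 and 17.5 CPM with hairpins #1, #2 and #3, and at 67.0, 88.9 and 71.9 CPM in Soft. All 3 Soft libraries lay above all others, while the hairpins lay on either side of Control, hairpin #2 above it and #1 and #3 below. In Soft the log2FC was 1.11 (SE 0.43, edgeR adjusted p = 0.0609) for means of 75.9 ± 11.5 against 35.3 ± 1.28 CPM (SD, n = 3), which is not past the threshold in the shared fit. It passed without hairpin #1 (edgeR adjusted p = 0.00998) or #2 (edgeR adjusted p = 0.00288) and in a fit of Control and Soft alone (edgeR adjusted p = 8.87e-09), and ran between 8.87e-09 and 0.159 over the alternatives. In sh_PIP4K2B the log2FC was -0.57 (SE 0.44, edgeR adjusted p = 0.399). Without hairpin #2 it was -1.39 (edgeR adjusted p = 0.00536). Soft against sh_PIP4K2B gave 1.67 (SE 0.44, edgeR adjusted p = 0.0124), which passed with DESeq2 (adjusted p = 0.000345), with library size scaling (edgeR adjusted p = 0.00681), with no filter (edgeR adjusted p = 0.009) and without hairpin #2 (2.49, edgeR adjusted p = 2e-04). RPL7, a ribosomal protein gene that overlaps RDH10 by 1188 bases on the other strand, was highest with the same hairpin, at 537, 1042 and 449 CPM with hairpins #1, #2 and #3 against a mean of 758 CPM in Control and 731 CPM in Soft. The libraries were prepared with a kit that keeps strand, but whether the counting used it is not stated, and the part of RPL7 in the RDH10 values was not tested.

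RDH11, a retinol dehydrogenase that is expressed in many tissues, is on the minus strand of chromosome 14, from 67676800 to 67695793. It was the steadiest of the 3 dehydrogenases, at 99.1, 107 and 104 CPM in Control, 86.3, 90.4 and 99.5 CPM with the hairpins, and 78.3, 82.5 and 79.3 CPM in Soft. Soft lay below all other libraries, and hairpin #3 lay within the Control range. The log2FC in Soft was -0.37 (SE 0.09, edgeR adjusted p = 0.0105), just outside the threshold. It passed without hairpin #1, #2 or #3 (adjusted p = 0.00152, 0.00548 and 0.00154, edgeR), in a fit of Control and Soft alone (edgeR adjusted p = 1.72e-06) and with DESeq2 (adjusted p = 0.000111). In sh_PIP4K2B the log2FC was -0.16, with a 95% interval from -0.37 to 0.05 (edgeR adjusted p = 0.252). An annotated readthrough gene shares 11% of the 75-base windows of RDH11. The 3 dehydrogenases differed in direction in Soft, where RDH10 had a positive fitted change and RDH5 and RDH11 negative ones.

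RPE65, LRAT and RLBP1 are the genes that most define the visual cycle, and none of them passed the filter. RPE65, the retinoid isomerase on chromosome 1 from 68428822 to 68449954, had 1 count with hairpin #3, 1 count in Soft replicate 3 and 0 in the other 7 libraries. LRAT, on chromosome 4 from 154626945 to 154753120, had 1 count in each Control library, 0 with each hairpin, and 0, 0 and 2 counts in Soft. Differences of this size cannot be seen at this depth. RLBP1, on chromosome 15 from 89209869 to 89221614 with 9 exons, had 0 counts in all 3 Control and all 3 sh_PIP4K2B libraries and 8, 11 and 7 counts in Soft, or 0.365, 0.524 and 0.313 CPM. All 3 Soft libraries were thus above the floor of 3 counts and the other 6 at 0. The Soft libraries, at 0.400 CPM on average, were at least 2.99-fold higher than the Control floor of 3 counts per library (0.134 CPM on average; 2.33-fold for the lowest Soft library) and at least 2.79-fold higher than that of sh_PIP4K2B. With the filter left off, the adjusted p was 0.00456 for Soft against Control and 0.00515 for Soft against sh_PIP4K2B (edgeR). RLBP1 failed the filter and its counts lie only in the condition where it is high, so these p-values are no support for a difference.

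OTX2, the homeobox factor needed for RPE and photoreceptor fate, is on the minus strand of chromosome 14, from 56799905 to 56816693 (5 exons). It was at 10.3, 10.8 and 11.7 CPM in Control, 16.0, 19.6 and 15.8 CPM with hairpins #1, #2 and #3, and 37.5, 34.8 and 39.4 CPM in Soft. The 3 conditions did not overlap, with Control lowest and Soft highest. In Soft the mean was 37.2 ± 2.32 against 10.9 ± 0.695 CPM (SD, n = 3), 3.41 times the Control mean (log2FC 1.77, SE 0.13, edgeR adjusted p = 1.39e-05). OTX2 was also higher in Soft than in sh_PIP4K2B (log2FC 1.12, SE 0.12, edgeR adjusted p = 0.000143), and both of these calls held in all 16 alternatives. In sh_PIP4K2B the mean of 17.1 ± 2.14 CPM (SD, n = 3) was 1.57 times that of Control (log2FC 0.65, SE 0.12, edgeR adjusted p = 0.00912). This smaller rise kept its direction but lost its call in 10 of 16 alternatives, among them leaving out any 1 Control library or any 1 Soft library, and a fit of the 2 conditions alone (edgeR adjusted p = 0.063, the highest). OTX2-AS1, which overlaps OTX2 by 3511 bases on the other strand, had 1 to 3 counts in Control and sh_PIP4K2B libraries and 14, 9 and 16 counts in Soft, below the filter.

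MITF, the master regulator of pigment cells, is on the plus strand of chromosome 3, from 69739456 to 69968336 (10 exons). It was at 35.9, 34.3 and 39.3 CPM in Control, 24.4, 37.9 and 30.1 CPM with the hairpins, and 26.4, 25.9 and 25.9 CPM in Soft. Soft lay below every Control library, while hairpin #2 lay within the Control range. The log2FC in Soft was -0.49 (SE 0.15, edgeR adjusted p = 0.0259) and that in sh_PIP4K2B -0.25 (SE 0.15, edgeR adjusted p = 0.287), neither past the threshold. The former passed without hairpin #1 (edgeR adjusted p = 0.00254) or #2 (edgeR adjusted p = 0.00453), in a fit of Control and Soft alone (edgeR adjusted p = 2.43e-06) and with DESeq2 (adjusted p = 0.0083). The counts are per gene and do not tell the MITF isoforms apart. The 2 regulators thus differed in Soft, where OTX2 rose and the fitted change of MITF was negative. TYR, DCT and MLANA, melanosome genes that MITF is known to switch on, were under the floor in every library. PMEL, another of these genes, had 6, 7 and 10 counts in Control, 2, 6 and 3 with the hairpins and 20, 8 and 21 in Soft, and TYRP1 had 0 to 5 counts in all libraries. Not all melanosome genes were this low, as the Control means were 33.3 CPM for RAB27A, 9.01 CPM for GPR143 and 5.96 CPM for RAB38.

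BEST1 is on the plus strand of chromosome 11, from 61950063 to 61965515 (11 exons). It had 1, 7 and 2 counts in Control, 11, 9 and 5 counts with hairpins #1, #2 and #3, and 17, 14 and 16 counts in Soft. The Soft libraries lay above all others, at 0.719 ± 0.054 against 0.147 ± 0.140 CPM in Control (SD, n = 3; log2FC 2.23, SE 0.53, edgeR adjusted p = 0.00759). Because BEST1 passed the filter only through the condition in which it is high, this p is no support for a difference. It missed the threshold in 8 of 15 alternatives, among them without Control replicate 1 or 3, without hairpin #2 and without any 1 Soft library, and lay between 0.000523 and 0.0402 over them. In sh_PIP4K2B the log2FC was 1.39 (SE 0.57, edgeR adjusted p = 0.126). BEST1 overlaps FTH1, the ferritin heavy chain gene, by 5798 bases on the other strand. FTH1 was at a mean of 1757 CPM in Control, 2672 in sh_PIP4K2B and 4152 in Soft, and it rose in sh_PIP4K2B (log2FC 0.60, edgeR adjusted p = 0.00944) and in Soft (1.24, edgeR adjusted p = 6.08e-05). Per 10000 counts of FTH1, BEST1 had 0.265, 1.72 and 0.506 counts in Control, 1.99, 1.51 and 0.949 with the hairpins, and 1.88, 1.56 and 1.76 in Soft, so on this scale Control replicate 2 lay within the Soft range. Whether the counting used strand is not stated, and the part of FTH1 in the BEST1 values was not tested.

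SERPINF1, on the plus strand of chromosome 17 from 1762029 to 1777565, had 8, 4 and 7 counts in Control, 7, 2 and 15 counts with the hairpins, and 20, 6 and 13 counts in Soft. The 3 conditions overlapped. The log2FC was 0.43 in sh_PIP4K2B (95% interval from -1.12 to 1.98, edgeR adjusted p = 0.703) and 1.05 in Soft (95% interval from -0.41 to 2.52, edgeR adjusted p = 0.211). The former turned to -0.42 without hairpin #3 (edgeR adjusted p = 0.692). Changes within these wide intervals were not detectable at this depth.

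Other genes that carry, store or convert retinoids were read in the same fit. Of 31 such genes 16 were tested, 5 were detected below the filter and 10 were under the floor in every library, among them the retinal G protein-coupled receptor RGR, the photoreceptor dehydrogenase RDH8, ALDH1A1 and ALDH1A2. In Soft 6 of the 16 rose, beside 15.8% of all genes, and none fell by edgeR's test (1 at an unadjusted p under 0.05, RDH13, and 0 with DESeq2). The median log2FC was 0.97 against 0.01 for all genes, and 12 of the 16 had a positive fitted change. This median lies between DGAT1 (0.58) and CYP26B1 (1.36), neither past the threshold, so it is no measure of a shift of the list. This list and those below were chosen with earlier results of these data known, so their shares are a description. CRABP2, which delivers retinoic acid to its receptor, rose from 3.22 ± 0.0883 to 11.4 ± 0.193 CPM (SD, n = 3; log2FC 1.82, edgeR adjusted p = 0.000277). The retinol dehydrogenase DHRS9 (2.63, edgeR adjusted p = 0.0012) and the cytochrome CYP1B1 (3.35, edgeR adjusted p = 1.61e-05) rose too, and these 3 calls held in every alternative other than a stricter p. The retinal reductase DHRS3 (1.56, edgeR adjusted p = 0.00828) and STRA6, the membrane receptor for retinol-binding protein (1.44, edgeR adjusted p = 0.00659), lost their calls without any 1 Control or any 1 Soft library (adjusted p up to 0.0364 for DHRS3 and 0.0338 for STRA6, edgeR). CYP26B1, which degrades retinoic acid, had 1.36 in Soft (edgeR adjusted p = 0.0439), not past the threshold, and CYP26A1 and CYP26C1 were under the floor.

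In sh_PIP4K2B only CYP1B1 of the 16 genes passed, beside 5.54% of all genes, from 24.0 ± 2.05 to 188 ± 72.4 CPM (SD, n = 3; log2FC 2.97, edgeR adjusted p = 0.000425), and in a fit of the 2 conditions alone it did not (edgeR adjusted p = 0.0122). The median of the 16 was -0.13 against 0.05 for all genes. None of them fell by edgeR's test, while 4 were lower at an unadjusted p under 0.05 and DESeq2 called 2 of these, STRA6 and ALDH1A3. Soft was higher than sh_PIP4K2B for 6 of the 16, among them STRA6, DHRS3, DHRS4, ALDH1A3 and CRABP2, beside 14.5% of all genes, and lower for none by edgeR's test (0 at an unadjusted p under 0.05 and 0 with DESeq2). STRA6 was at 0.652, 1.01 and 1.00 CPM in Control, 0.230, 0.434 and 0.148 CPM with the hairpins and 1.82, 2.67 and 2.77 CPM in Soft, so its 3 conditions did not overlap and the hairpins were lowest (-1.70, adjusted p = 0.0227 against Control, not past the threshold, and 3.13, adjusted p = 0.000264 for Soft against sh_PIP4K2B, edgeR). ALDH1A3, which makes retinoic acid and was the most abundant of the group by CPM per gene in Control, was at 516 ± 6.67 CPM in Control, 356 ± 32.3 in sh_PIP4K2B and 544 ± 47.5 in Soft (SD, n = 3; Soft against sh_PIP4K2B 0.61, edgeR adjusted p = 0.00239). That call was lost without Soft replicate 2 or 3 and in a fit of the 2 conditions alone (adjusted p up to 0.0199 over the alternatives, edgeR).

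**Figure D4:**
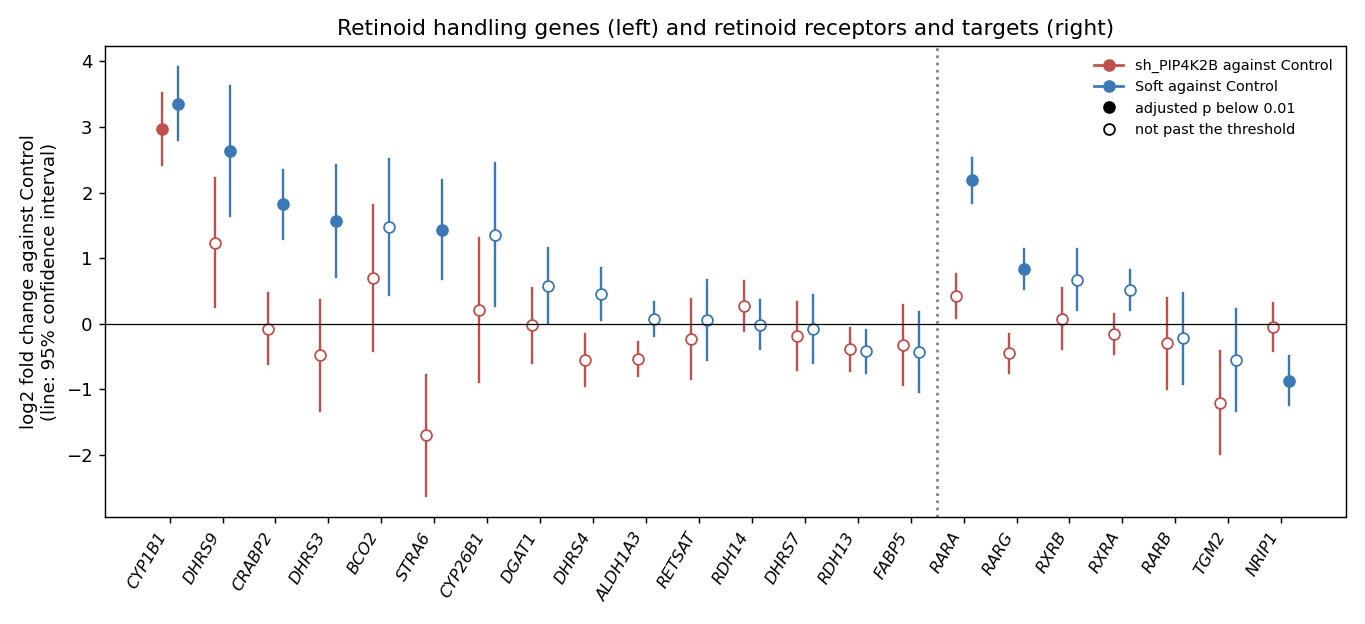
Log2 fold changes against Control, on the y axis, of 15 retinoid handling genes and the 7 retinoid receptors and targets that were tested, with 95% confidence intervals as lines, filled points for an adjusted p below 0.01 and open points for the others. In Soft 5 of these handling genes, RARA and RARG lie above 0 and NRIP1 below it with filled points, whereas in sh_PIP4K2B CYP1B1 alone has a filled point.

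Of 8 retinoid receptors and target genes, 7 were tested and RXRG was under the floor. In Soft the retinoic acid receptors RARA (37.6 ± 2.72 to 171 ± 10.1 CPM, SD, n = 3; log2FC 2.19, edgeR adjusted p = 1.35e-05) and RARG (0.84, edgeR adjusted p = 0.000926) rose, beside 15.8% of all genes. NRIP1, a corepressor induced by retinoic acid, fell (-0.87, edgeR adjusted p = 0.00232), a call that was lost without Control replicate 2 or 3 or any 1 Soft library and with library size scaling only (adjusted p up to 0.0124 over the alternatives, edgeR). RARB, a direct target of retinoic acid, did not pass (-0.22, edgeR adjusted p = 0.583). In sh_PIP4K2B none of the 7 passed by edgeR's test, while at an unadjusted p under 0.05 RARA was higher and 2 were lower (RARG and TGM2), and DESeq2 called TGM2. The medians were 0.52 in Soft and -0.16 in sh_PIP4K2B, both the values of RXRA, which did not pass in either.

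Of 14 further regulators of the eye field and the RPE, 10 were tested, and the other 4, among them RAX, SIX6 and CRX, were under the floor in every library. In Soft 4 of the 10 rose and 1 fell, beside 15.8% and 14.8% of all genes. The eye field factors PAX6 (19.5, 21.2 and 22.1 CPM in Control and 64.9, 65.2 and 62.2 CPM in Soft; log2FC 1.61, edgeR adjusted p = 2.05e-05) and SIX3 (1.57, edgeR adjusted p = 3.27e-05) had changes close in size to that of OTX2. TFEB, a relative of MITF (1.58, edgeR adjusted p = 0.000307), and ZNF503 (0.94, edgeR adjusted p = 0.000443) also rose. TFEC, another relative of MITF, fell from 0.968 ± 0.0859 to 0.168 ± 0.0484 CPM (SD, n = 3; -2.48, edgeR adjusted p = 0.0088), a call that was lost in 7 of 9 fits with 1 library left out, with library size scaling only and with upper quartile scaling (adjusted p up to 0.0375 over the alternatives, edgeR). In sh_PIP4K2B PAX6 was at 19.1, 25.1 and 20.3 CPM and SIX3 at 35.9, 49.2 and 49.8 CPM, and none of the 10 passed by edgeR's test (2 at an unadjusted p under 0.05, TFEB and ZNF503, both higher, and 0 with DESeq2). For PAX6 and SIX3 Soft was higher than sh_PIP4K2B by 1.58 and 1.55 (adjusted p = 3.21e-05 and 4.43e-05, edgeR).

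Of 30 other genes of RPE identity, 18 were tested, 3 were detected below the filter and 9 were under the floor. In Soft 3 rose (RAB38, PROS1 and CST3) and 5 fell (GAS6, TIMP3, KRT8, KRT18 and EZR), beside 15.8% and 14.8% of all genes, and the median log2FC was 0.10. Of the 9 fits with 1 library left out, PROS1 and KRT8 lost their calls in 6, CST3 in 5, RAB38 in 4 and EZR in 2. In sh_PIP4K2B 3 fell (GAS6, TIMP3 and KRT18) and none rose by edgeR's test (3 were higher at an unadjusted p under 0.05 and 0 with DESeq2), beside 2.77% of all genes lower, with a median of -0.17. TIMP3, a metalloprotease inhibitor of the layer under the RPE, was at 8.38, 6.71 and 7.03 CPM in Control, 0.829, 2.26 and 2.22 CPM with the hairpins and 1.78, 2.05 and 2.28 CPM in Soft (-2.06, adjusted p = 0.0038 in sh_PIP4K2B and -1.85, adjusted p = 0.00131 in Soft, edgeR). KRT18 was at 937, 891 and 877 CPM in Control, 495, 427 and 336 CPM with the hairpins and 384, 362 and 347 CPM in Soft (-1.10, adjusted p = 0.00182 and -1.31, adjusted p = 0.000138, edgeR). GAS6, a ligand of the receptor MERTK through which the RPE engulfs outer segments, had -0.61 (edgeR adjusted p = 0.0079) and -0.92 (edgeR adjusted p = 0.000229). The calls of these 3 genes in Soft held in every alternative other than a stricter p, whereas in sh_PIP4K2B each was lost without any 1 Control library and in a fit of the 2 conditions alone (adjusted p up to 0.0285 for TIMP3, 0.0231 for KRT18 and 0.0621 for GAS6 over the alternatives, edgeR). There GAS6 and TIMP3 were lost also without any 1 Soft library and with the replicate number as a block, and GAS6 with no filter. MERTK itself was at 1.11 ± 0.259 CPM in Control, 2.42 ± 1.28 in sh_PIP4K2B and 2.48 ± 0.41 in Soft (SD, n = 3) and did not pass. The melanosome receptor GPR143 had log2FCs of 0.03 and 0.01.

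The tested genes whose log2 CPM over the 9 libraries was most like that of RDH5 were ABCA3 (Pearson's r = 0.994), PACSIN3 (0.989), C19orf57 (0.987), NCAPG2 (0.984) and CCNF (0.983), out of 13783 genes compared. The 9 points are 3 conditions of 3 libraries and the genes were picked for their likeness, so these values are a description. ABCA3, a lipid transporter, was at 69.5 ± 4.76 CPM in Control, 33.7 ± 6.18 in sh_PIP4K2B and 50.6 ± 2.91 in Soft (SD, n = 3), the same order of conditions as RDH5 over a narrower range.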

How the data were processed

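RNA was measured in 9 libraries of hTERT_RPE1 cells, 3 each for Control, sh_PIP4K2B and Soft. The authors prepared stranded mRNA libraries, sequenced paired reads of 75 nt, used STAR for alignment to GRCh38/hg38, and deposited a matrix of estimated counts by gene symbol with no scaling or pooling; per the labels' processing notes Salmon was also used. The annotation and the use of strand in counting are not given in the sources used here. Fractional values (12.3% of all) were rounded for the tests. Libraries held 19217346 to 24020799 counts, and columns tied to no sample numbered 0.

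Genes were tested with edgeR 4.0.16 (R 4.3.3, limma 3.58.1; quasi-likelihood F test after filterByExpr and TMM), fitting all libraries at once, with Benjamini-Hochberg adjustment over the 13784 genes tested and a threshold of 0.01. SEs were taken from the F statistic. On simulated data with 13784 genes and changes planted in 100 genes of each size, edgeR recovered 59 at 2-fold and 93 at 4-fold in sh_PIP4K2B against Control (2 false calls), and 43 and 97 in Soft against Control (3 false calls). DESeq2 1.42.0 recovered 86 and 96 with 22 false calls, and 85 and 98 with 16. The changes were planted only in genes above a set mean level, and BEST1 and SERPINF1 lie below it. The simulated conditions were all given the same spread for a gene, whereas in the data the spread was wider between hairpins. These rates are therefore not the rates for low genes or for sh_PIP4K2B. Alternatives were other filters, scalings and thresholds, DESeq2, fits of 2 conditions, a block on the replicate number, omission of each library in turn, and RDH5 summed with its readthrough row. Gene positions and lengths are from GENCODE v44, promoters from RefSeq.

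The genes and lists were chosen with earlier results of these data known. Named are the 10 genes, list genes past the threshold (at most the 6 with the lowest adjusted p per list and comparison) or whose role or absence is described, PIP4K2B, overlapping genes, and the 5 genes most like RDH5. PMEL, TYRP1 and BLOC1S1 are named under these rules. A planned comparison of protein sequences was not run. Some genes of the lists are counted but not reported here by name.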

Additional observations from a re-analysis of the deposited data

How the results depend on the processing

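The direction of every tested gene among the 10 was the same in all alternatives in which it could be fitted, except SERPINF1 in sh_PIP4K2B, which turned from 0.43 to -0.42 without hairpin #3 and was at most 0.88, without hairpin #2. The number of the 10 genes called was 2 in each comparison. In Soft against Control this count includes BEST1, whose p there is no support for a difference, and the counts given below include it wherever it passed. For sh_PIP4K2B against Control it was 1 with no filter, with the upper quartile or with the replicate block, 0 in a fit of the 2 conditions and at 0.001, and 0 to 3 with 1 library left out. For Soft against Control it was 1 with at least 10 counts in every library, with the replicate block or at 0.001, 5 with DESeq2 or at 0.05, 6 in a fit of the 2 conditions, and 1 to 5 with 1 library left out. For Soft against sh_PIP4K2B it was 4 with no filter, 1 in a fit of the 2 conditions and at 0.001, and 1 to 3 with 1 library left out. Over the 7 gene lists, 5 genes were called in sh_PIP4K2B, where DESeq2 called 12, the fit of the 2 conditions 0, the replicate block 3, a threshold of 0.05 14 and of 0.001 2, with 1 to 16 when 1 library was left out; 33 were called in Soft (58 in a fit of the 2 conditions, 16 at 0.001, 19 to 42 with 1 library left out) and 25 in Soft against sh_PIP4K2B (12, 11 and 16 to 32). The same 19 of the 33 calls in Soft, 12 of the 25 and 0 of the 5 held under every alternative filter, scaling, tool, fit and left-out library. Over all genes, the calls in sh_PIP4K2B were 763, with 2066 by DESeq2, 5 in a fit of the 2 conditions, 295 with the replicate block and 66 to 2013 with 1 library left out; in Soft they were 4217 (9601 in a fit of the 2 conditions, 2506 to 6373 with 1 library left out) and in Soft against sh_PIP4K2B 4135 (2183, and 2350 to 5374). At 0.05 and 0.001 they were 2375 and 90, 6498 and 1918, and 6372 and 1804. Whether libraries with the same replicate number belong together is not stated in the labels. The deviations of same-numbered libraries correlated at -0.115 to 0.0394. This cannot settle the question, as each sh_PIP4K2B library is another hairpin and the libraries per condition are few. The block ended the calls of OTX2 in sh_PIP4K2B (adjusted p = 0.0273, edgeR) and BEST1 in Soft (adjusted p = 0.0141, edgeR). It brought RDH10 past 0.01 in Soft against sh_PIP4K2B (adjusted p = 0.0072, edgeR). The cause of these differences was not tested. Counts of 20 or fewer per library limit what can be said of BEST1, SERPINF1, RLBP1, RPE65 and LRAT.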

Other observations

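The lists for other cell types held further differences in Soft. The glutamine synthetase GLUL rose from 48.0 ± 0.831 to 125 ± 1.24 CPM (SD, n = 3; log2FC 1.38, edgeR adjusted p = 1.98e-05) and ROM1, a disc rim protein of photoreceptors that other cells also transcribe, from 2.66 ± 0.155 to 9.10 ± 0.976 CPM (SD, n = 3; 1.77, edgeR adjusted p = 7.06e-05). Both held in every alternative filter, scaling, tool, fit and left-out library. GFAP (4.29, edgeR adjusted p = 0.0035) and HES1 (1.39, edgeR adjusted p = 0.00924) lost their calls in 5 and 7 of 9 fits with 1 library left out, and with the replicate number as a block. GFAP could not be fitted with at least 10 counts in every library, and its log2FC ran from 3.77 to 6.90 over the alternatives. Its p is therefore not taken as support for a difference.

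Of the 16 mesenchymal markers, 5 rose in Soft (S100A4, SNAI1, TWIST1, COL1A1 and COL3A1) and 2 fell (TAGLN and POSTN), beside 15.8% higher and 14.8% lower of all genes, with a median log2FC of -0.06 against 0.01 for all genes. Of the 9 fits with 1 library left out, S100A4 and TWIST1 lost their calls in 6 and COL1A1 in 7, and the replicate block ended those of TWIST1 and COL1A1. The collagen COL3A1 rose by 3.01 (edgeR adjusted p = 1.46e-05), while TAGLN, a smooth muscle actin-binding protein, had -2.05 (edgeR adjusted p = 0.00128) and the matrix protein POSTN -2.75 (edgeR adjusted p = 0.000503). SNAI1, a repressor of epithelial genes, was the 1 marker of the 16 past the threshold in sh_PIP4K2B, from 9.63 ± 0.583 to 21.8 ± 3.13 CPM (SD, n = 3; 1.18, edgeR adjusted p = 0.000971). That call was lost without Control replicate 2 and in a fit of the 2 conditions (adjusted p up to 0.0188 over the alternatives, edgeR).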
